A study of Mus musculus with 4 samples.

Results

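The 76 mitochondrial ribosomal protein genes studied here were all genes whose symbol begins with Mrpl or Mrps followed by a number, with names ending in -ps left out. They were 76 of the 33219 genes listed in any of 4 single-cell RNA-seq files, and each of the 76 was listed in all 4 files. The symbols held 47 Mrpl genes, named for the large subunit, and 29 Mrps genes, named for the small subunit. The pseudogene Mrps36-ps1, whose name ends in a number after -ps, was left out with the -ps names, and it had 207, 86, 77 and 171 UMIs in tumours 1 to 4 against 1245, 416, 251 and 574 for Mrps36.

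Each file held 10x Genomics transcriptomes of cells sorted as viable from 1 frozen tumour, a medulloblastoma of the sonic hedgehog subgroup (SHH MB) taken at end point from Ptch1+/- mice that were irradiated at birth and given no treatment. The study had 1 group of 4 tumours, with no untreated brain, other genotype or unirradiated tumour among them, so the comparisons below are between cell classes within tumours. Every tumour carried the heterozygous Ptch1 allele and the irradiation. The labels number the tumours as replicates and do not say that each came from a separate mouse. The p-values therefore measure how the difference between classes of the same sample varied over the samples compared.

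Mitochondrial ribosomes sit in the matrix and translate the few messenger RNAs encoded by mitochondrial DNA, all of which specify subunits of the respiratory chain and ATP synthase. Their ribosomal RNAs are made in the organelle, whereas all of their proteins are encoded in the nucleus, made in the cytosol and imported. Some of the proteins have a counterpart in bacterial ribosomes and others are found only in mitochondrial ribosomes. Granule neuron progenitors, the cells from which SHH medulloblastoma arises, divide in response to sonic hedgehog and then differentiate into neurons.

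In the annotation of GRCm38 the 76 genes were single protein-coding genes spread over 17 chromosomes, with at most 10 on one chromosome (chromosome 11). A protein-coding neighbour that starts within 1000 bases and runs the other way (a head-to-head partner) was annotated for 17 of the 76 (22.4%), against 1491 of 21951 protein-coding genes (6.79%). Promoters, taken from RefSeq on GRCm38.p6 as 250 bases before and 50 after the start, were available for 67 members and 17492 protein-coding genes. On either strand, the ETS-family letters CCGGAAG were present in the promoters of 24 members (35.8%) against 12.9% of protein-coding genes. An exact NRF1 motif was present in 12 (17.9%, against 7.17%) and an exact YY1 motif in 5 (7.46%, against 1.06%). The other letters searched gave GGGCGG (SP family) in 49.3% against 49.2%, CCAAT in 40.3% against 42.3%, CACGTG (E-box) in 7.46% against 8.91% and TATAAA in 7.46% against 14.8%. Of the 28 CCGGAAG matches in member promoters, 25 lay within 100 bases of the start. These matches describe letters only, and no binding was measured.

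The 250 bases before the start are printed for 5 genes that differed between cell classes and whose printed bases lay outside annotated exons or overlapped them by at most 12 bases. Mrpl42 (chr10:95501950-95502199, minus strand), Mrpl17 (chr7:105811088-105811337, minus strand) and Mrpl20 (chr4:155802628-155802877, plus strand) differed within the tumour lineage. Mrpl52 (chr14:54426659-54426908, plus strand) and Mrpl33 (chr5:31613701-31613950, plus strand) were the only 2 members that tested as higher in myeloid-like cells than in progenitor-like cells. Capitals mark CCGGAAG, read on either strand, and the NRF1 motif. The RefSeq start of Mrpl33 lies inside the longer gene span annotated by GENCODE.
Mrpl42: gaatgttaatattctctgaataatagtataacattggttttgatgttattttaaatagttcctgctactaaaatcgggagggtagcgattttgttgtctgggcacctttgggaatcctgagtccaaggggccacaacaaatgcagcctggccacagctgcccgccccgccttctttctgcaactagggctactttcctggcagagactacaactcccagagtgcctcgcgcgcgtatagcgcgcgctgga
Mrpl17: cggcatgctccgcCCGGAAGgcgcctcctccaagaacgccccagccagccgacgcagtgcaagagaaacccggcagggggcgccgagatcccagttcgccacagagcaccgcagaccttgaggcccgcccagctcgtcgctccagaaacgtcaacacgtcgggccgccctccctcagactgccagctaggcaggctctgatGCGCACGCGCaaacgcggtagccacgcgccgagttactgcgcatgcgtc
Mrpl20: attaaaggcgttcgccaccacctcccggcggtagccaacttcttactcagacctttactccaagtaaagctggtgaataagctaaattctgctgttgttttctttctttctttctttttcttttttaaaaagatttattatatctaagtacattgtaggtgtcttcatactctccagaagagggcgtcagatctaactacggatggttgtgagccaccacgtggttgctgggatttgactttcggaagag
Mrpl52: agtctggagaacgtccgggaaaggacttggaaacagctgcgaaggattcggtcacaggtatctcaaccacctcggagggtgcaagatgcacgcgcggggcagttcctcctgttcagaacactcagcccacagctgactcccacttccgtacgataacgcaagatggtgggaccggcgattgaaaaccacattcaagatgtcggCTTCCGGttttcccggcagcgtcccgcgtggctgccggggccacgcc
Mrpl33: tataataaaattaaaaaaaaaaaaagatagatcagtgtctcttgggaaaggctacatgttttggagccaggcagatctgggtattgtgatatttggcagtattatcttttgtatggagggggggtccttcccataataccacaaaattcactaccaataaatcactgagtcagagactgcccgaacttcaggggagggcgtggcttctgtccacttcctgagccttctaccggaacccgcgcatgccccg
The Mrpl17 run holds 1 match of each kind, Mrpl52 holds 1 ETS-family match, and the runs of Mrpl42, Mrpl20 and Mrpl33 hold neither. A further match of Mrpl33 begins 3 bases before the start and runs past the printed end.

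The files gave 797, 2587, 1224 and 1881 analysed cells for tumours 1 to 4, with medians of 15272, 7736, 6785 and 7798 UMIs per cell. Cells were grouped by clustering that left the members and the other mitochondrial and ribosomal genes aside, and classes were called "-like" from fixed marker lists. All 14 granule progenitor markers had UMIs in every tumour, and their summed level in progenitor-like cells was 2763 to 6050 CPM (UMIs of a gene scaled to the same total in every class). Tumour 4 stood apart. Its progenitor-like share was 25.3% of cells against 50.6% to 64.6% in the others, and its progenitor-like and neuron-like cells formed clusters of their own. Myeloid-like cells made up 24.6% of its cells, neutrophil-like cells 19.9%, T and NK cell-like cells 8.45% and dendritic cell-like cells 7.23%. In its progenitor-like cells the 10 neutrophil markers summed to 893 CPM, against 57796 CPM in its neutrophil-like cells and as little as 5.78 CPM in progenitor-like cells of another tumour. In tumour 1, 147 cells of unnamed clusters had a median of 49072 UMIs. Pairs of libraries shared 0 to 7 cell barcodes.

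Together the 76 genes gave 7637, 7490, 7320 and 6277 CPM over all cells of tumours 1 to 4. The first 3 tumours lay within a narrow range and tumour 4 lay below them. In progenitor-like cells alone, the sum was 7725, 7768, 7514 and 7278 CPM, so tumour 4 was again lowest but nearer to the rest. The Mrpl symbols contributed 4657 to 5067 CPM and the Mrps symbols 2621 to 2738 CPM of this in progenitor-like cells. Single members were detected in many cells: the median member had at least 1 UMI in 72.2%, 49.4%, 45.8% and 40.9% of the cells of tumours 1 to 4, and tumour 1 also had the most UMIs per cell.

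Among members with at least 10 CPM, the level in progenitor-like cells varied less between tumours than that of genes at large. The median ratio of the highest to the lowest tumour was 1.28 over 75 members and 1.56 over 7967 genes, and the median levels were 84.2 and 35.9 CPM, so members also had more UMIs behind each value. UMIs count transcripts, so levels of different genes were compared without division by length.

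Mrps33, a small-subunit protein found only in mitochondrial ribosomes (6:39801804-39810988), had the highest mean level over all cells, 328 ± 45.4 CPM (SD, n = 4). Its values were 316, 316, 392 and 286 CPM in tumours 1 to 4. Mrpl52, a large-subunit protein also without a bacterial counterpart (14:54426909-54429756), followed at 324 ± 109 CPM (SD, n = 4). It stood at 311, 228, 278 and 480 CPM, with tumour 4 above the others, whereas in progenitor-like cells it was 292, 226, 284 and 337 CPM. The next in order were Mrpl42 (237 CPM), Mrpl30 (203), Mrps14 (202), Mrpl33 (198), Mrpl23 (196) and Mrpl18 (195), and the last 5 of these did not differ from each other beyond their spread over tumours (SD 12.4 to 50.9 CPM). Mrpl30 was steady between tumours in progenitor-like cells, at 217, 217, 207 and 224 CPM.

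Mrpl53, a large-subunit protein (6:83109040-83109939), had the lowest level, with 6.28, 1.54, 1.83 and 3.16 CPM over all cells. Its gene model shares 695 exonic bases with Gm42688 on the same strand, and how reads in such a stretch were counted is not given in the sources used here. It was the only member under 10 CPM and was therefore not tested. Mrps27 (18.8 CPM), Mrps2 (24.4), Mrps31 (28.2) and Mrpl1 (34.4) were the next lowest.

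**Figure D1:**
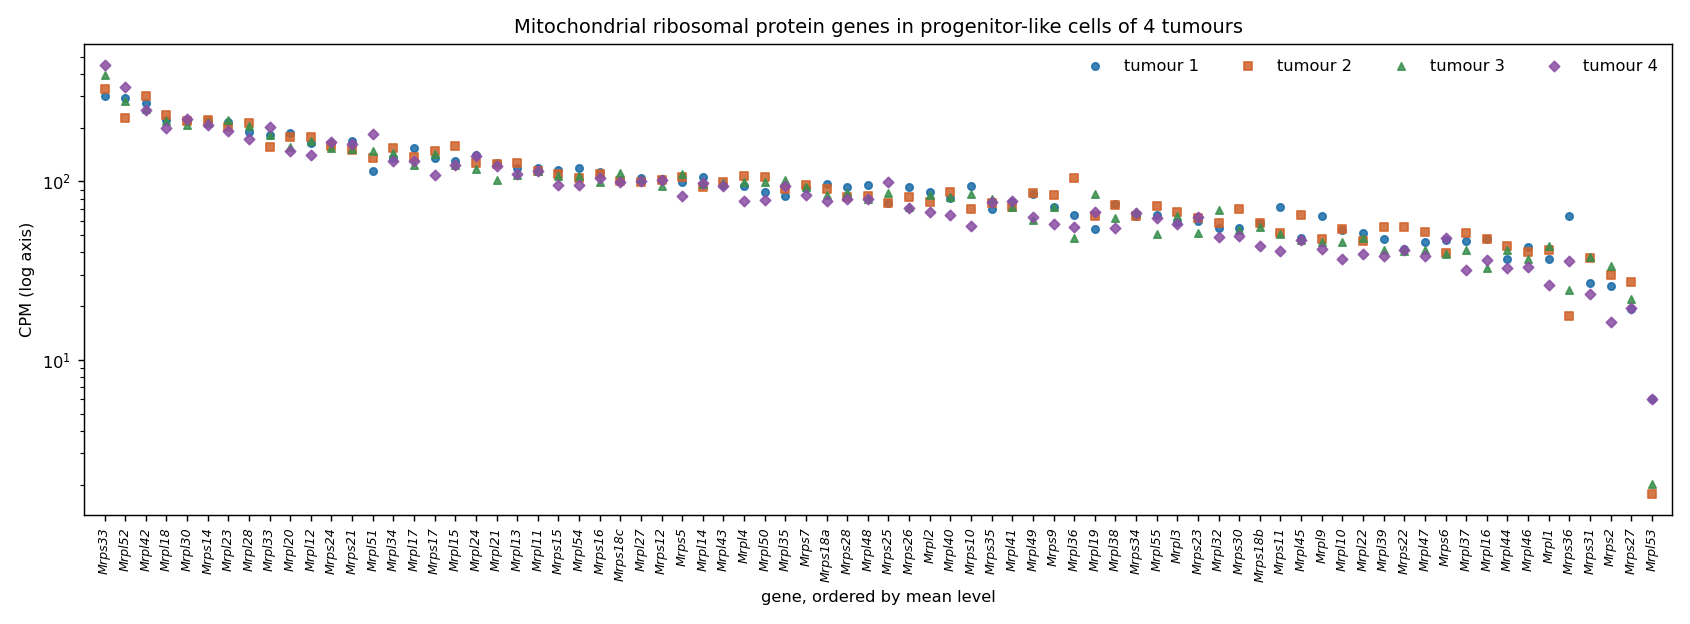
Level of each of the 76 genes in progenitor-like cells, in CPM on a log axis, with 1 symbol per tumour and genes ordered by mean level. The 4 symbols lie close together for most genes, from Mrps33 at the top to Mrpl53 at the bottom, and apart for Mrps36, at 63.9 CPM in tumour 1 and 17.5 CPM in tumour 2.

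Among members with a mean of at least 30 CPM in progenitor-like cells, Mrps36, Mrpl36 and Mrps11 had the largest ratios of the highest to the lowest tumour. Mrps36, whose protein is now placed in the alpha-ketoglutarate dehydrogenase complex and not in the ribosome, had 63.9, 17.5, 24.5 and 35.8 CPM in tumours 1 to 4. Tumour 1 was 3.64 times tumour 2. Mrpl36, a small large-subunit protein with a bacterial counterpart, had 64.6, 105, 48.2 and 55.5 CPM, highest in tumour 2. Mrps11, a small-subunit protein with a bacterial counterpart, had 72.2, 51.6, 50.5 and 40.9 CPM.

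The Mrps18 paralogs take different places in the ribosome: Mrps18c is the small-subunit protein like that of bacteria, Mrps18b is a small-subunit protein at another site, and Mrps18a lies in the large subunit. Mrps18c had 101, 101, 111 and 99.0 CPM in progenitor-like cells. Mrps18a had 96.1, 90.3, 83.6 and 77.9 CPM, below Mrps18c in each tumour. Mrps18b was the lowest of the paralogs, at 58.3, 58.7, 55.6 and 43.2 CPM. Mrps30, which despite its symbol lies in the large subunit, had 54.9, 69.8, 53.7 and 49.4 CPM.

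Within the tumour lineage the summed level was higher in progenitor-like than in neuron-like cells of each tumour, and myeloid-like cells lay lower still. Neuron-like cells had 7132, 6927, 6778 and 6504 CPM in tumours 1 to 4, below the progenitor-like cells of the same tumour each time. Neuron-like cells of tumours 1 to 3 fell into an early cluster (led by Chrna3, Nhlh1 and Tubb3, among others) with 7304, 7295 and 6937 CPM, and a late cluster (led by Pnoc, Neurod1 and Cntn2) with 6930, 6415 and 6327 CPM. The names early and late rest only on the summed granule progenitor markers of the cluster, at least 4500 CPM for early and less for late. Within progenitor-like cells of tumours 1 to 3, non-cycling cells had 7441, 7691 and 7346 CPM. Cycling-like cells (the S-phase-like and G2/M-like clusters) had 7815, 7692 and 7361 CPM, a difference with overlapping values. The rest of the progenitor-like class, mixed-phase granule progenitor-like cells, was on neither side of this split. Those cells had values in all 4 tumours. Myeloid-like cells had 5374, 5330 and 5187 CPM in tumours 1, 2 and 4, under every tumour lineage class. Astrocyte-like cells had 7329 and 7047 CPM and oligodendrocyte lineage-like cells 7463 and 6894 CPM in tumours 3 and 4, within the range of the tumour lineage. Muscle-like cells, found in tumour 1, had 8349 CPM (95% Poisson interval 8158 to 8544, for counting error only). No test was made on summed levels.

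**Figure D2:**
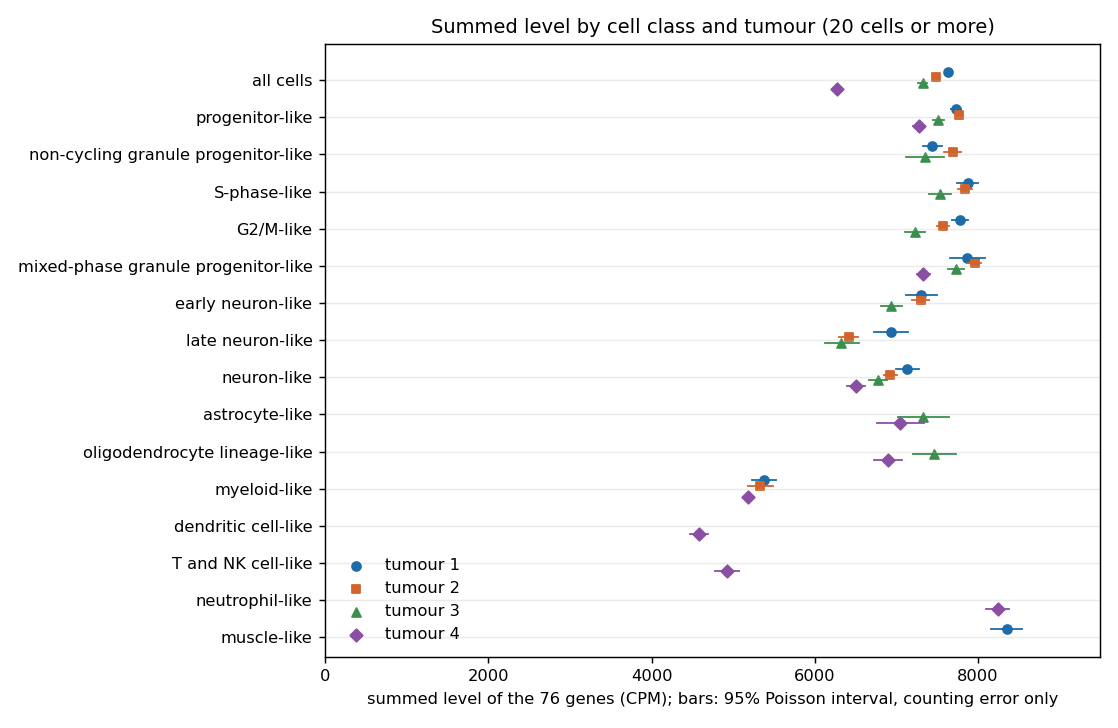
Summed level of the 76 genes in CPM by cell class, with 1 symbol per tumour and bars for the 95% Poisson interval, for classes of at least 20 cells. Neuron-like symbols lie left of progenitor-like symbols of the same tumour, and myeloid-like, dendritic cell-like and T and NK cell-like symbols lie furthest left, between 4579 and 5374 CPM.

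The first comparison asked how the members differ between neuron-like and progenitor-like cells of the same 4 tumours. No member was higher and 17 of 75 tested were lower in neuron-like cells, with falls of 0.18 to 0.48 on the log2 scale. The share called was 22.7% of members in either direction, against 44.3% of the 8160 genes tested; 18.5% of all genes were lower and 25.8% higher. The median difference was -0.10 over members and 0.05 over all genes. The members lower in neuron-like cells included 10 large-subunit proteins (such as Mrpl42, Mrpl51, Mrpl18 and Mrpl13) and 7 small-subunit proteins (such as Mrps28 and Mrps25). By unadjusted p under 0.05, 1 member was higher and 26 were lower. In either direction this was 27 of 75 members, against 4268 of 8160 genes tested.

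Mrpl42, a large-subunit protein found only in mitochondrial ribosomes (10:95480805-95501940), had 239, 175, 163 and 193 CPM in neuron-like cells and 274, 302, 256 and 250 CPM in progenitor-like cells. The groups did not overlap, and every tumour was lower in neuron-like cells. The difference was -0.48 (SE 0.087, limma adjusted p = 0.00125). Mrpl51, also a large-subunit protein without bacterial counterpart (6:125191801-125196269), had 79.1, 86.8, 102 and 140 CPM against 114, 134, 147 and 183 CPM. Tumour 4 was highest in both classes and the groups overlapped, while each tumour was lower in neuron-like cells; it fell by 0.48 (SE 0.071, limma adjusted p = 0.000255). Mrpl18, the large-subunit protein that in mammals also helps bring cytosolic 5S ribosomal RNA into mitochondria (17:12911349-12916345), had 153, 146, 162 and 160 CPM against 222, 234, 217 and 199 CPM, without overlap. It fell by 0.46 (SE 0.072, limma adjusted p = 0.000345).

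Mrpl13, with a bacterial counterpart (15:55534094-55557748), had 82.0, 89.2, 83.5 and 90.1 CPM in neuron-like and 119, 127, 108 and 111 CPM in progenitor-like cells, and fell by 0.39 (SE 0.074, limma adjusted p = 0.00138). Mrps28, a small-subunit protein (3:8802146-8923918), had 73.3, 59.1, 63.5 and 56.4 CPM against 93.0, 81.3, 86.3 and 79.2 CPM, and fell by 0.38 (SE 0.075, limma adjusted p = 0.00159). In neither gene did the groups overlap. Of the most abundant members, Mrps33 (difference -0.12) and Mrpl52 (-0.15) did not pass the test. Mrpl20, another abundant large-subunit member, was at 0.02. Of the members fixed for their unusual places, Mrps18b fell by 0.24 (limma adjusted p = 0.0278), while Mrps18a (-0.04), Mrps18c (-0.07), Mrps30 (-0.08) and Mrps36 (-0.05) did not pass.

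By role, the count lower was 8 of 29 for the large subunit with a bacterial counterpart, 2 of 19 for the large subunit without, 5 of 16 for the small subunit with, and 2 of 10 for the small subunit without. Division markers moved with the comparison: the 15 G2/M markers summed to 365, 230, 529 and 1186 CPM in neuron-like cells and to 1975 to 3038 CPM in progenitor-like cells. Cytosolic ribosomal protein genes made up 21.3%, 16.4%, 17.4% and 22.2% of UMIs in neuron-like and 23.3%, 20.8%, 19.5% and 27.2% in progenitor-like cells. Against non-cycling progenitor-like cells alone (n = 3), 3 members were lower, Mrpl17, Mrpl40 and Mrps28, and Mrpl51 stood at -0.13. Without tumour 1, 2, 3 or 4 the count lower was 11, 11, 9 and 14, and without the tumour block it was 2 (Mrpl18 and Mrpl42).

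Other mitochondrial genes did not share a single direction in this comparison. Of 6 mitoribosome proteins with other symbols, Gadd45gip1 was higher by 0.49 (limma adjusted p = 0.000805), and Ptcd3 (-0.26) and Chchd1 (-0.22) were lower. The translation factors gave 2 higher and 1 lower of 11: the initiation factors Mtif2 (0.40) and Mtif3 (0.38), and the elongation factor Tsfm (-0.32). Assembly and rRNA modification factors gave 2 higher and 2 lower of 17, with Mpv17l2 at 0.87 and C1qbp at -0.46. Mitochondrial aminoacyl-tRNA synthetases gave 1 higher and 3 lower of 17, and genes of mitochondrial DNA transcription and RNA handling 1 higher and 2 lower of 15, among them Tfam at -0.38, the packaging protein of mitochondrial DNA. Of the mitochondrially encoded mRNAs, the templates of this ribosome, 5 of 12 were higher and none lower, with mt-Co1 at 0.27 (limma adjusted p = 0.00129).

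Nuclear oxidative phosphorylation genes gave 3 higher and 13 lower of 75, and import and chaperone genes 1 higher and 11 lower of 25, including the chaperonin Hspe1 at -0.49. Cytosolic ribosomal protein genes were lower in 71 of 79 with a median of -0.23, against the members' -0.10. Of 9 regulators of mitochondrial biogenesis, Esrra was higher (0.45) and 4 were lower, among them Myc (-0.45) and Mycl (-0.41).

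Late neuron-like cells were then set against early neuron-like cells in tumours 1 to 3, a comparison added after the clusters had been seen. No member was higher and 4 of 75 were lower (5.33%), against 17.4% of 8171 genes called, with 7.59% lower and 9.85% higher. The median difference was -0.10 over members and 0.01 over all genes. By unadjusted p under 0.05, 2 members were higher and 10 lower. In either direction this was 12 of 75 members, against 2388 of 8171 genes tested. Mrpl17, a large-subunit protein that lies near the tunnel exit (7:105803206-105811099), had 113, 80.4 and 61.0 CPM in late and 154, 117 and 112 CPM in early cells, and fell by 0.57 (SE 0.124, limma adjusted p = 0.00244). Mrpl42 had 202, 142 and 131 CPM in late and 271, 199 and 175 CPM in early cells, and fell by 0.42 (SE 0.099, limma adjusted p = 0.00423). In both genes every tumour was lower in late cells, and the groups overlapped since tumour 1 was high in both classes. The other members called were Mrpl15 (-0.38) and Mrpl23 (-0.37), both with bacterial counterparts. Without tumour 2 only Mrpl17 remained and without tumour 3 only Mrpl42; without tumour 1, 10 were lower and 1 higher, and without the tumour block none passed.

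The next comparison asked how the members differ with division, between cycling-like and non-cycling progenitor-like cells of tumours 1 to 3. Mixed-phase granule progenitor-like cells were left out of it. Of 75 members, 6 were higher in cycling-like cells and none was lower. This was 8% of members, against 26.2% of 8107 genes called, 13.3% higher and 12.9% lower. All 6 were large-subunit genes: Mrpl51, Mrpl18, Mrpl42, Mrpl13, Mrpl20 and Mrpl28. The large subunit gave 4 of 29 with a bacterial counterpart and 2 of 19 without. The small subunit, with fewer genes tested, gave 0 of 16 and 0 of 10. At clustering resolution 2, calls in either direction also included the small-subunit genes Mrps17 and Mrps21. At resolution 1, used for the counts above, Mrps17 stood at 0.05 and Mrps21 at -0.17, and neither passed. The median difference was -0.01 over members and over all genes. By unadjusted p under 0.05, 9 members were higher and 7 lower. In either direction this was 16 of 75 members, against 3033 of 8107 genes tested.

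Mrpl51 had 129, 158 and 160 CPM in cycling-like and 85.3, 97.9 and 113 CPM in non-cycling cells, without overlap. It was higher by 0.55 (SE 0.085, limma adjusted p = 1.41e-05). Mrpl18 had 242, 251 and 236 CPM against 175, 196 and 158 CPM, also without overlap, and was higher by 0.45 (SE 0.073, limma adjusted p = 2.92e-05). Mrpl42 had 284, 315 and 268 CPM against 228, 262 and 223 CPM. It was higher by 0.27 (SE 0.066, limma adjusted p = 0.00273), again with no overlap of the groups. The differences of Mrpl13 (0.27), Mrpl20 (0.26) and Mrpl28 (0.24) were called with limma adjusted p of 0.0335, 0.0148 and 0.0137. All 3 tumours were higher for each of the 6.

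Mrpl51 starts 100 bases from its head-to-head partner Ncapd2, a condensin subunit that compacts chromosomes in mitosis. Ncapd2 was higher in cycling-like cells by 1.78 (SE 0.127, limma adjusted p = 1.01e-11) and had -0.71 between neuron-like and progenitor-like cells (limma adjusted p = 0.0022), and Mrpl51 had 0.55 and -0.48 in the same comparisons. A second pair was Mrpl49 and Fau, which encodes a cytosolic ribosomal protein and starts 59 bases away. Between cycling-like and non-cycling cells Mrpl49 stood at 0.20 without passing the test while Fau fell by 0.23 (limma adjusted p = 0.000438). Between neuron-like and progenitor-like cells Mrpl49 stood at -0.17 without passing and Fau fell by 0.19 (limma adjusted p = 0.0134), both in the same direction. Both pairs were chosen after their values had been seen. The 17 members with such a partner gave 1 higher in cycling-like cells, and the 58 without gave 5.

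Near-identical stretches of at least 98 bases elsewhere in the annotation bear on some of these names. Of the 6, Mrpl20 shared such stretches with 26 other genes, Mrpl13 with 2, and Mrpl18, Mrpl42 and Mrpl51 with 1 each. Those of Mrpl20 aligned over 107 to 128 bases, and that of Mrpl51 over 387 bases. How reads mapping to several genes were counted is not given in the sources used here. Of the 26 tested members with such a stretch 5 were higher in cycling-like cells, and of the 49 without it 1 was. Whether these stretches had a part in the calls was not tested. Exons of Mrpl18 also overlap those of Tcp1 on the other strand by 141 bases, and those of Mrpl13 overlap Mtbp by 330 bases. Non-cycling cells held more astrocyte marker UMIs, 756, 484 and 757 CPM against 415, 302 and 510 CPM over 12 markers, and their part in the result was not tested. With a total that left out cytosolic ribosomal and mitochondrially encoded genes, Mrpl51, Mrpl18 and Mrpl42 stayed higher, the other 3 did not pass, and 8 other members were lower; without the tumour block none was called.

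Cycling-like cells are part of the progenitor-like class, so this comparison and the one with neuron-like cells share cells. Side by side, cycling minus non-cycling and neuron minus progenitor were 0.55 and -0.48 for Mrpl51, 0.45 and -0.46 for Mrpl18, 0.27 and -0.48 for Mrpl42, 0.27 and -0.39 for Mrpl13, 0.24 and -0.18 for Mrpl28, and 0.26 and 0.02 for Mrpl20. Mrps28, lower in neuron-like cells, stood at -0.08 between cycling-like and non-cycling cells. Mrpl17 stood at -0.20 there and did not pass.

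In the other mitochondrial lists, of 17 assembly factors 3 were higher in cycling-like cells and none lower, including the GTPase Noa1 (0.47). The list of translation factors gave none higher and 1 lower of 11. That 1 was Oxa1l (-0.39), a membrane insertase and not itself a translation factor. Genes of mitochondrial DNA transcription and RNA handling gave none higher and 2 lower of 15, among them Hsd17b10 at -0.46. Mitochondrial aminoacyl-tRNA synthetases gave 2 higher and 1 lower of 19, and import and chaperone genes 3 higher and 2 lower of 25. The 6 mitoribosome proteins with other symbols gave no call. Of 12 mitochondrially encoded mRNAs 6 were lower, with mt-Co1 at -0.24 (limma adjusted p = 4.27e-05). Nuclear oxidative phosphorylation genes gave 7 higher and 7 lower of 75, and cytosolic ribosomal protein genes 68 lower of 79. Of 8 regulators of mitochondrial biogenesis, 2 were higher and 3 lower. Gabpb1, a subunit of the ETS-family factor GABP, was higher by 0.74 (limma adjusted p = 1.72e-05) and Nrf1 by 0.45 (limma adjusted p = 0.0078). Those lower included Myc (-0.44) and Mycl (-0.34). Of the 23 tested members with CCGGAAG in the promoter 2 were higher in cycling-like cells, and of the 43 with a promoter lacking it 3 were.

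**Figure D3:**
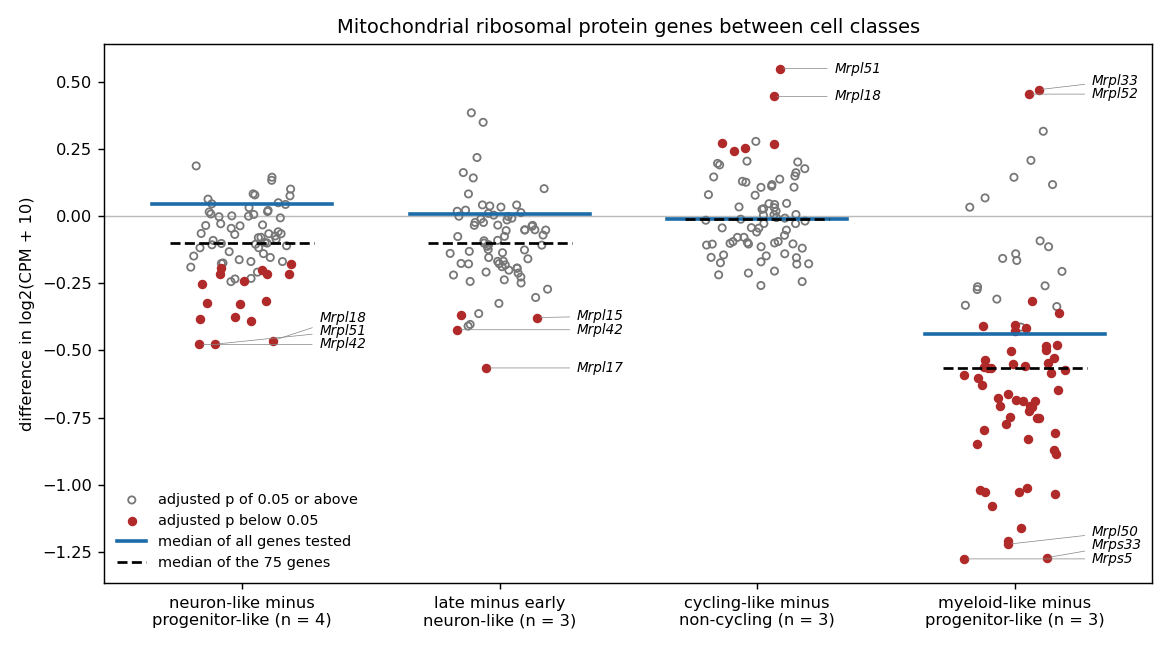
Difference in log2(CPM + 10) of the 75 tested genes in 4 comparisons of cell classes; each point is a gene, filled where the limma adjusted p was below 0.05, and lines give the median of all genes tested (solid) and of the 75 (dashed). Filled points lie below 0 in both neuron-like comparisons, above 0 for cycling-like cells, and mostly below 0 for myeloid-like cells, where Mrpl33 and Mrpl52 lie above.

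The last tested comparison set myeloid-like cells, which are not of the tumour lineage, against progenitor-like cells of tumours 1, 2 and 4. Of 75 members 54 were lower (72%) and 2 were higher (2.67%). At an unadjusted p under 0.05 these counts were 57 and 2. In either direction that was 59 of 75 members, against 6204 of 8019 genes tested. All genes tested (8019) gave 75.6% called, 53.6% lower and 22.0% higher, so calls were common at large. The median difference was -0.57 over members and -0.44 over all genes. Most myeloid-like cells of tumours 1 and 2 were in a cluster led by H2-Aa and Lyz2 and those of tumour 4 in one led by Apoc2 and Chi3l3.

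Mrps5, a small-subunit protein with a bacterial counterpart (2:127587222-127606829), had 46.5, 30.7 and 26.0 CPM in myeloid-like and 99.3, 105 and 83.2 CPM in progenitor-like cells. It fell by 1.28 (SE 0.162, limma adjusted p = 6.58e-05). Mrps33, the most abundant member, had 145, 132 and 145 CPM against 300.0, 329 and 446 CPM, and fell by 1.27 (SE 0.138, limma adjusted p = 2.45e-05). Mrpl50 had 37.2, 30.7 and 30.7 CPM against 86.9, 106 and 78.5 CPM, and fell by 1.22. Mrpl13 (-1.21) and Mrps35 (-1.16) followed. In none of these genes did the groups overlap.

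Mrpl52 went the other way, with 369, 339 and 472 CPM in myeloid-like and 292, 226 and 337 CPM in progenitor-like cells. The lowest myeloid-like value lay just above the highest progenitor-like value, and the difference was 0.45 (SE 0.114, limma adjusted p = 0.00471). Mrpl33, a large-subunit protein with a bacterial counterpart (5:31596935-31664384), had 276, 179 and 320 CPM against 182, 156 and 200.3 CPM. Every tumour was higher in myeloid-like cells, though the groups overlapped, and the difference was 0.47 (SE 0.135, limma adjusted p = 0.00993). Mrpl33 shared near-identical stretches with 3 other genes and Mrpl52 with none. The call of Mrpl33 was lost without tumour 1 (0.42) or without tumour 4 (0.38), at a finer clustering (0.27) and without the tumour block; that of Mrpl52 was lost only without the tumour block. Mrps21 (0.21), Mrpl36 (0.32), Mrpl54 (0.14) and Mrpl32 (0.12) did not pass.

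Without tumour 4, whose progenitor-like cells held 1113 CPM of myeloid markers, 47 members were lower and 1 was higher. Centred on the median of all genes, 8 members were higher and 15 lower, so the split between directions in this comparison depends on that shift of -0.44. With the mean deposited log2 value in place of summed UMIs 16 were lower. Both members that were higher hold CCGGAAG in the promoter. Of the 23 tested members with it 2 were higher and 14 lower, and of the 43 with a promoter lacking it none was higher and 34 were lower. Among the other lists, all 12 mitochondrially encoded mRNAs were lower (mt-Nd3 at -1.20), as were 22 of 25 import and chaperone genes, with Hspd1 at -1.53. Nuclear oxidative phosphorylation genes gave 2 higher and 47 lower of 76, the 2 being Uqcrb (0.86) and Cox6b2 (0.48). Cytosolic ribosomal protein genes gave 3 higher and 68 lower of 79, with a median of -0.42.

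**Figure D4:**
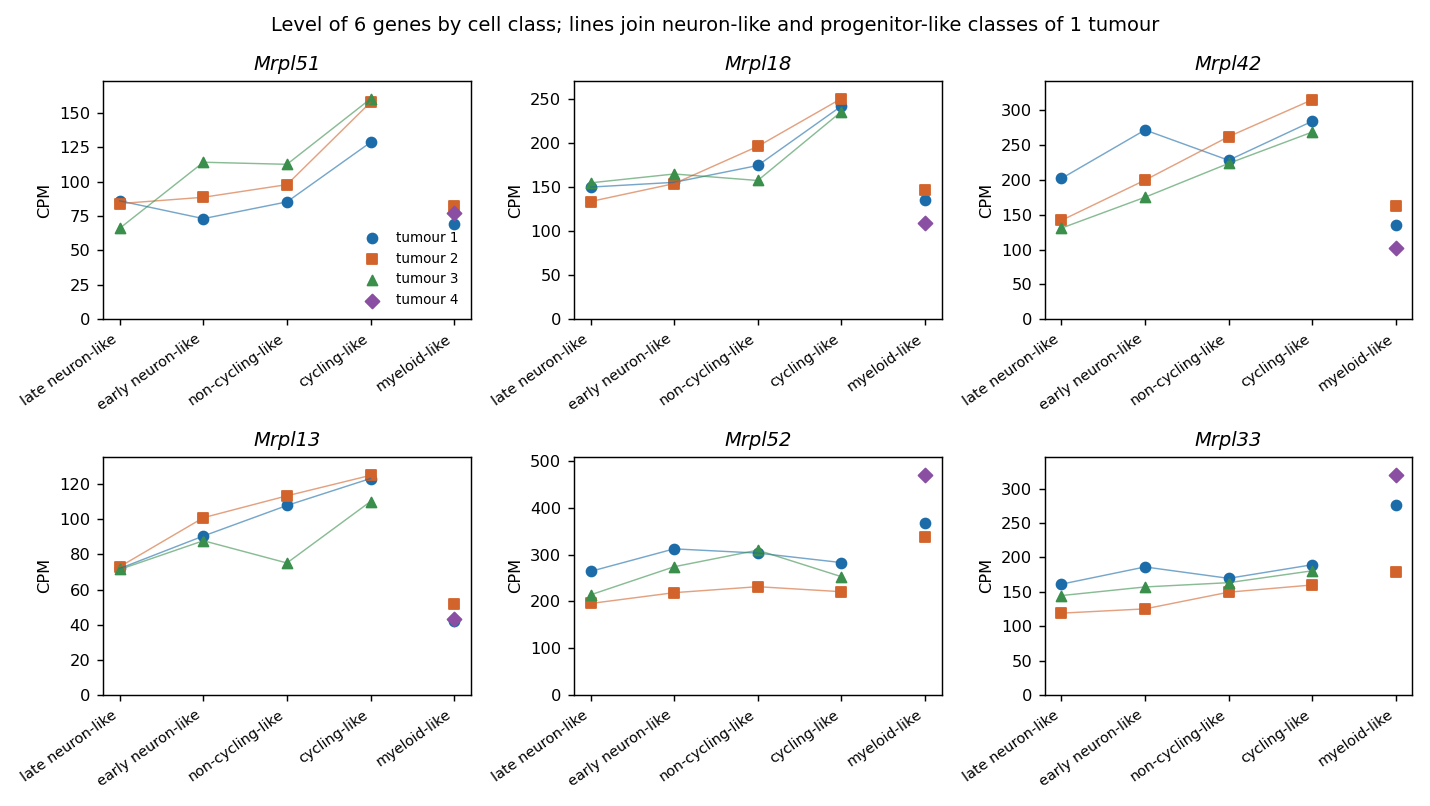
Level in CPM of 6 genes in late neuron-like, early neuron-like, non-cycling, cycling-like and myeloid-like cells, with 1 symbol per tumour and lines joining classes of the tumour lineage in tumours 1 to 3. Mrpl51 and Mrpl18 are highest in cycling-like cells in tumours 1 to 3, and Mrpl52 and Mrpl33 are highest in myeloid-like cells in tumours 1 and 2.

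Immune classes other than myeloid-like cells had at least 20 cells in tumour 4 only, so their values describe 1 tumour and carry no test; intervals are 95% Poisson intervals for counting error only. The 375 neutrophil-like cells of tumour 4, with a median of 4014 UMIs, gave a summed level of 8239 CPM (8100 to 8380), above its progenitor-like cells at 7278 CPM (7205 to 7351). Mrpl52 alone was at 1409 CPM (1352 to 1468) in them, against 337 CPM (321 to 352) in progenitor-like cells, a ratio of 4.19. Mrpl33 was at 546 CPM (510 to 583) against 200.3 CPM, and Mrps21, a small-subunit protein with a bacterial counterpart, at 400 CPM (369 to 432) against 162 CPM. These were the 3 members with a ratio above 2.

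Mrpl52 and Mrpl33 made up 23.7% of the member UMIs of neutrophil-like cells, and the sum without them was 6284 CPM against 6741 CPM in progenitor-like cells. Of the 75 members with at least 10 CPM, 24 had a ratio above 1 and 51 below, with a median of 0.783, and 11 were under 0.5. Mrps6, a small-subunit protein, had the lowest ratio, 0.14, with 11 UMIs (6.78 CPM, 3.39 to 12.1) against 48.3 CPM (42.6 to 54.6) in progenitor-like cells. Thus the high sum in neutrophil-like cells came from few genes, while most members were below their progenitor-like level.

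Dendritic cell-like cells of tumour 4 had a summed level of 4579 CPM (4472 to 4688) and T and NK cell-like cells 4924 CPM (4775 to 5075). The median ratio to progenitor-like cells was 0.534 over members in dendritic cell-like cells and 0.694 in T and NK cell-like cells. Mrpl52 was at 508 CPM (473 to 545) in dendritic cell-like cells and 291 CPM (256 to 330) in T and NK cell-like cells, and Mrpl33 at 256 CPM (231 to 283) and 264 CPM (230 to 301). Mrpl33 was therefore above the progenitor-like level in each of the 4 immune classes of tumour 4, and Mrpl52 in 3 of them. Mrpl33 was not alone in this. Mrpl36, at 55.5 CPM in progenitor-like cells of tumour 4, had 71.9 to 105 CPM over its 4 immune classes. Mrpl32 had 48.9 CPM against 53.4 to 85.1 CPM, and Mrps21 had 162 CPM against 172 to 400 CPM. The lowest of these values for Mrpl32 and Mrps21 lay only slightly above the progenitor-like level.

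**Figure D5:**
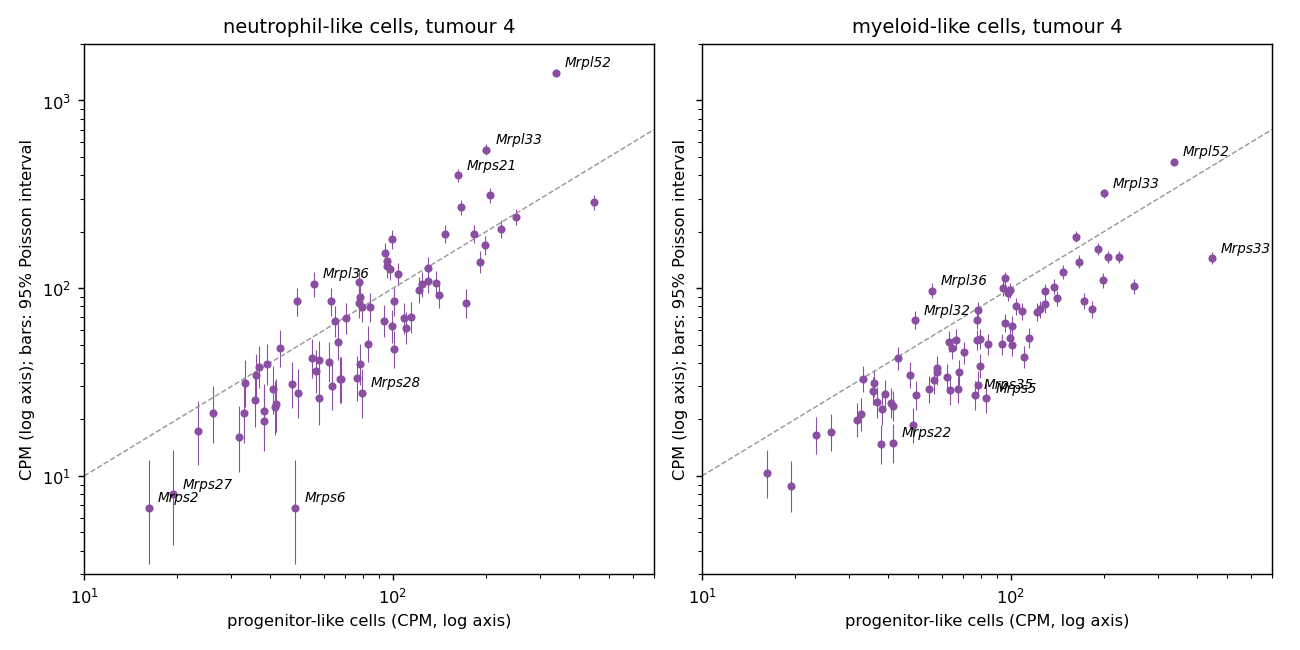
Level of each member in neutrophil-like cells (left) and myeloid-like cells (right) of tumour 4 against its level in progenitor-like cells of the same tumour, in CPM on log axes, with bars for the 95% Poisson interval and a dashed line of equal level. Mrpl52 at 1409 CPM and Mrpl33 at 546 CPM stand above the line for neutrophil-like cells, and Mrps6 at 6.78 CPM far below it.

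For oligodendrocyte lineage-like cells the design gave levels only, since tumours 3 and 4 alone had at least 20 cells. With at least 10 cells, and with a coarser clustering, the limma test could be run on 3 tumours. It called no member at an adjusted p under 0.05, with 3 members at an unadjusted p under 0.05 in each. Calls were few at large: 614 of 8688 genes with at least 10 cells, and 155 of 8390 with the coarser clustering.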

How the data were processed

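Cells of 4 tumours were profiled with 10x single-cell RNA-seq. The submitters' processing notes name Cell Ranger, Seurat and the mm10 build, with no order or version. The deposited values are log2 of each UMI count divided by a size factor of the cell, plus 1, as read from the values themselves, and the UMI counts were recovered from them as whole numbers (tolerance 1e-06).

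Cells with fewer than 500 genes or over 10% mitochondrially encoded UMIs were to be left out, and none was. Scrublet marked 20 cells (0.307%), too few for a working doublet caller, and these were removed, which left 6489 cells. Cells were clustered with scanpy 1.11.5 and leidenalg 0.10.2 (1000 variable genes, 30 components, resolution 1) without the members and the other mitochondrial and ribosomal lists. Clusters were named from marker lists. The naming thresholds were set after the clusters had been seen. Unnamed clusters entered no comparison.

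UMIs were summed per class and tumour, for classes of at least 20 cells, and tested as log2(CPM + 10) with limma 3.58.1 (trend and robust settings), with the tumour as a block because both classes came from the same tumour. Genes had a mean of at least 10 CPM, and p-values were adjusted by Benjamini-Hochberg over all genes tested, with a threshold of 0.05. Folds are on the log2(CPM + 10) scale, which understates the change of low genes. The pipeline was tested on simulated data. The members and lists were chosen with earlier results of these data known. Assembly factors were dropped from the oxidative phosphorylation list, and kinases and binding proteins from the ribosomal list. Genes were named by rule: the highest and lowest levels, the largest called differences, and members with unusual places in the ribosome. Promoters of Mrpl13, Mrpl15, Mrpl19, Mrpl38, Mrpl4, Mrpl54, Mrps28, Mrps34 and Mrps35 were not analysed here.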

Additional observations from a re-analysis of the deposited data

Results flagged for a closer look

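Over 90 groups of 4 tumour values, 1 had a sample far from the others: Mrpl18 over all cells was at 151 CPM in tumour 4 and at 204 to 215 CPM in tumours 1 to 3. Chance flags about 1 in 20 such groups. In progenitor-like cells Mrpl18 was at 199 CPM in tumour 4 and at 217 to 234 CPM in the others, and progenitor-like cells made up 25.3% of the cells of tumour 4.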

How the results depend on the processing

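No called difference of a named gene changed sign under any alternative run, but in cycling-like cells the balance of calls went from 6 higher and 0 lower to 3 higher and 8 lower with a total leaving out cytosolic ribosomal and mitochondrially encoded genes. The number of members lower in neuron-like cells (17) was 31 with the mean deposited log2 value, 30 with a total leaving out cytosolic ribosomal and mitochondrially encoded genes, 30 when centred on the median of all genes, 11 at clustering resolution 0.5, 3 against non-cycling progenitor-like cells, 9 for early neuron-like cells alone (added after seeing the data), and 9 to 14 with 1 tumour left out. The number higher in cycling-like cells (6) was 14 with the deposited log2 value, 3 with the reduced total and 10 at resolution 2, and the number lower (0) was 1 with each cell weighted equally, 8 with the reduced total, 4 at resolution 0.5, 2 at resolution 2, 4 when cells were split by phase markers, and 0 to 2 with 1 tumour left out. In myeloid-like cells the number higher (2) was 8 when centred, 1 at resolution 2 and 1 to 3 with 1 tumour left out, and the number lower (54) was 16 with the deposited log2 value and 15 when centred. Late against early neuron-like cells gave 10 lower with the reduced total, 1 to 10 lower and 0 to 1 higher with 1 tumour left out. Without the replicate block, which pairs the classes of a tumour, 2 members were lower in neuron-like cells, and 0 were higher in cycling-like cells, 0 higher in myeloid-like cells and 0 lower in late neuron-like cells. With the reduced total, the summed level was 10578, 9712, 9476 and 8584 CPM in tumours 1 to 4. The cause of these changes was not tested. The counts above are of members only, and the number of all genes called under each setting is not given here. A change in members therefore cannot be told apart from a change in genes at large. With 1 tumour left out, limma estimates the spread from the 2 or 3 tumours left and shares it over genes. Not run, because fewer than 3 tumours were left, were the cycling comparison without doublet removal, the myeloid comparison against non-cycling cells, and most settings for oligodendrocyte lineage-like cells. Depth limits low members: Mrpl53 had under 10 CPM in every tumour.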
